A study of Bos taurus with 8 samples.

Results

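Mitochondria carry their own ribosomes, which translate the few proteins encoded in mitochondrial DNA, all of them subunits of the respiratory chain and the ATP synthase. Each mitochondrial ribosome has a large subunit, where peptide bonds are made and the new protein leaves, and a small subunit, which holds the messenger RNA and decodes it. All of their proteins are encoded in the nucleus, translated in the cytosol and imported, and the lactating mammary gland spends mitochondrial energy on making milk protein, fat and lactose. The genes described here are those whose single annotated symbol is MRPL followed by a number, for the large subunit, or MRPS followed by a number, for the small one. They numbered 67 of the 9155 genes with 1 symbol on the array, 43 by symbol in the large and 24 in the small subunit.

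The tissue was lactating mammary gland of 4 Holstein cows (Bos taurus), biopsied and hybridised to 8 single-colour Affymetrix arrays. A full sample, taken 12 h since milk removal, and an empty one, taken at 0 h, came from every animal. Neither the age of the cows nor the order of the biopsies is given in the sources used here. Full and empty gland were set against each other cow by cow, and the order or hour of sampling cannot be told apart from the state.

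Of the 78 MRPL and MRPS genes in the RefSeq annotation of ARS-UCD2.0, 11 (MRPL1, MRPL17, MRPL33, MRPL40, MRPL47, MRPL54, MRPS10, MRPS12, MRPS18C, MRPS21 and MRPS33) were not analysed here. The 67 members matched that annotation by gene number, and 0 symbols differed. A member was measured by its brightest probe set, a group of short probes for 1 transcript, and 14 members had more than 1, giving 84 probe sets in all. On the log2 scale of the deposited signal the members' mean levels lay between 6.94 and 10.6, and 66 of 67 were above the median probe set. By their brightest probe sets, 6200 of all 9155 genes were above it. The symbols do not follow the assembled ribosome in every case. As background from structures of mammalian mitochondrial ribosomes, MRPS18A and MRPS30 sit in the large subunit, and MRPS36 is now known as a part of the oxoglutarate dehydrogenase complex. By structure there were therefore 45 large and 21 small subunit members and 1 outside the ribosome.

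The arrays carried no read depth, and their number limits the precision. Array medians lay between 7.08 and 7.24 log2. Across probe sets, the full arrays of cows 2 and 4 resembled the rest least, at a median correlation of 0.969 and 0.975, against 0.986 to 0.987 for the remaining 6. The 5-prime and 3-prime control probe sets of 5 bovine transcripts (GAPDH, EF1A, cyclophilin, EIF4E and GST, as named on the platform) were used to read RNA integrity. Their mean 5-prime minus 3-prime difference was -1.91 log2 in the full library of cow 2 and between -1.22 and -0.756 in the other 7. Within cows, full minus empty, it differed by 0.110, -0.988, 0.374 and 0.144 log2 in cows 1 to 4. Milk protein transcripts, which mark the labelled tissue, were measured for 6 of 6 listed genes and their summed level lay between 16.5 and 16.6 log2 on all 8 arrays. The mean levels of these genes were 13.3 to 14.4 log2, near the highest deposited value of 14.4, so the arrays may show little difference there.

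Most mitochondrial ribosomal protein genes had a slightly lower mean in full than in empty gland, by an amount that differed between the cows. The mean was lower for 58 of 67 members (86.6%), against 51.4% of all genes, and the median difference was -0.097 log2 against -0.0036 over all genes. Single members differed by between -0.28 and 0.15 log2, or 0.822-fold to 1.11-fold. None passed limma's moderated test at an adjusted p of 0.05, where 0 of 24016 probe sets (0%) passed. The lowest limma adjusted p among the members was 0.993. Before adjustment 2 members, MRPL42 and MRPS36 (2.99%), were under 0.05, against 2.8% of all genes, and both were lower in full gland, against 1.67% of all genes. No member had full and empty levels that did not overlap, against 0.71% of all genes and 0.36% with full the lower.

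**Figure D1:**
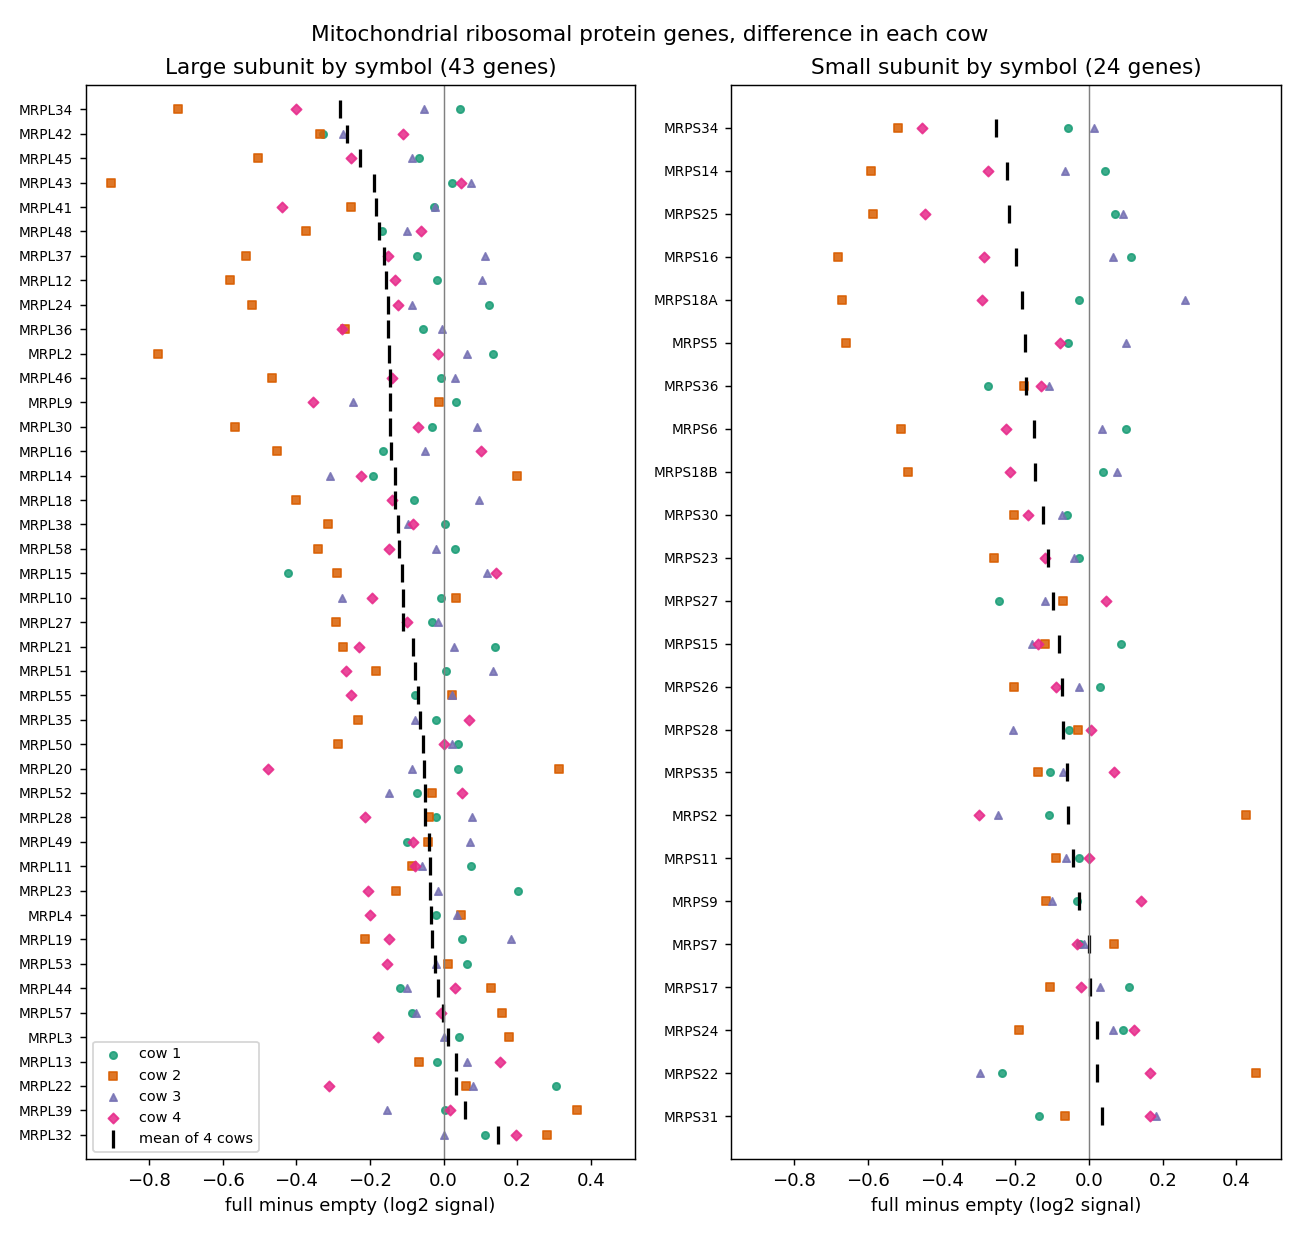
Full minus empty difference in log2 signal (horizontal axis) for each of the 43 large subunit genes (left) and 24 small subunit genes (right), with 1 coloured symbol per cow and a black bar for the mean of the 4 cows, sorted by that mean. The means run from -0.28 to 0.15, and the cow 2 symbols spread widest, from -0.90 to 0.45.

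The large and small subunits had nearly the same difference. Over the 43 large subunit members the median was -0.11 log2, with 38 lower and 5 higher. Over the 24 small subunit members it was -0.089, with 20 lower and 4 higher. In cows 1 to 4 the large subunit median differed by -0.018, -0.23, -0.015 and -0.14, and the small subunit median by -0.027, -0.18, -0.035 and -0.10. The large minus small difference of these medians was therefore 0.0090, -0.048, 0.020 and -0.036, with a mean of -0.014 ± 0.033 (SD, n = 4 cows). Its sign differed between cows and its mean was smaller than its spread, so no difference between the subunits was seen beyond the spread between animals. Grouping the members by structure instead gave a median of -0.11 for the large and -0.073 for the small subunit.

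**Figure D2:**
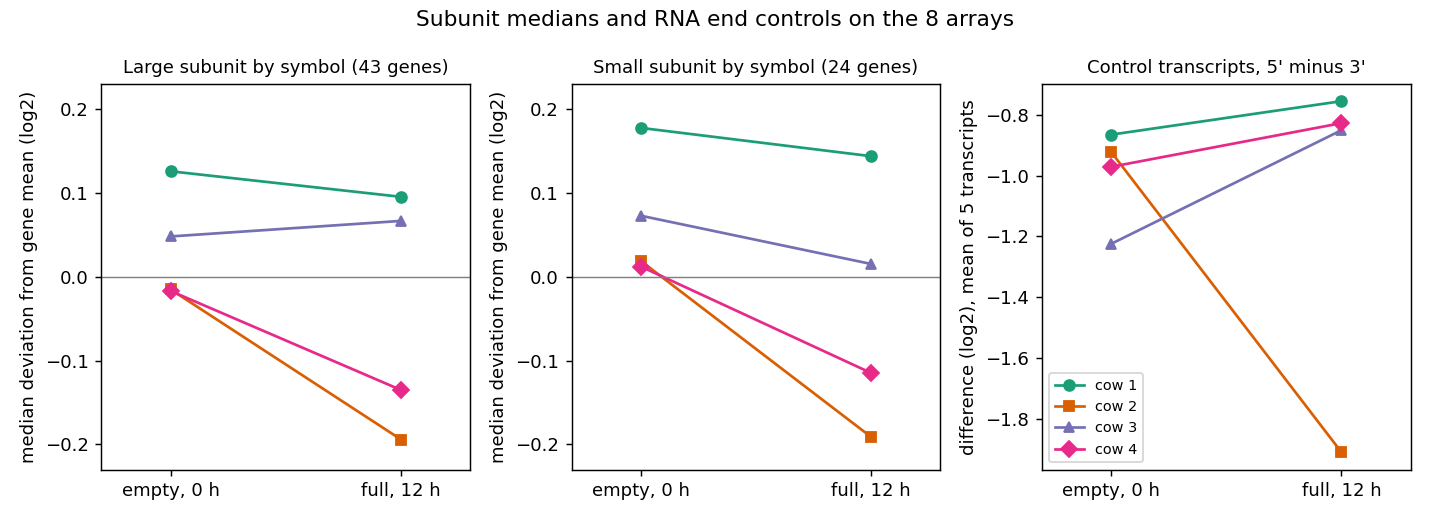
Median over genes of the deviation from each gene's own mean over the 8 arrays, for the large subunit (left) and small subunit (middle), and the mean 5-prime minus 3-prime difference of 5 control transcripts (right), all in log2, with 1 line per cow from empty to full. The full libraries of cow 2 (-0.19 in both subunits) and cow 4 (-0.14 and -0.11) are lowest for the members, and cow 2 alone drops in the control panel.

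Cow 2 gave the widest differences. There 52 of 67 members were lower in full gland (77.6%, against 45.8% of all genes), and 22 of them by more than 1.25-fold (32.8%, against 14% of all genes). The range ran from -0.90 for MRPL43 to 0.45 for MRPS22, with a median of -0.20. Higher by more than 1.25-fold were 3 members (against 19.6% of all genes). This is the cow whose full library had the low 5-prime control signal, and the part of RNA integrity in these values was not tested. In cow 4 the median was -0.13, with 49 members lower (73.1%, against 46.8% of all genes) and 6 by more than 1.25-fold (8.96%, against 7.98%), while 0 were higher by as much (against 16.5%). The 5-prime minus 3-prime difference was 0.144 higher in full than in empty gland of that cow, so it did not drop there.

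Cows 1 and 3 showed little difference. Their medians over the 67 members were -0.021 and -0.016, with 39 and 37 members lower (58.2% and 55.2%, against 63.1% and 55.7% of all genes). In cow 1, 2 members were lower by more than 1.25-fold (2.99%, against 7.5% of all genes), and in cow 3 there were 0 (against 3.54%). None was higher by as much in either cow (against 1.55% and 2.28%). Averaged over these 2 cows alone, 35 of 67 members were lower (52.2%, against 62.2% of all genes). With only cow 2 left out, 56 of 67 were lower (83.6%, against 54.6% of all genes) and the medians were -0.044 for the large and -0.036 for the small subunit.

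In full gland 9 members were lower in every cow (13.4%, against 7.11% of all genes): MRPL27, MRPL36, MRPL41, MRPL42, MRPL45, MRPL48, MRPS23, MRPS30 and MRPS36. That count was 6 after centring on array medians, for which no share of all genes is given. Only MRPL32 was higher in every cow (1.49%, against 3.59% of all genes).

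In the large subunit, MRPL42, a protein with no bacterial counterpart, had the smallest unadjusted p of the members. Its levels in cows 1 to 4 were 9.53, 9.35, 9.36 and 9.10 log2 in empty gland and 9.20, 9.01, 9.09 and 8.99 in full gland. Each full value was below the empty value of the same cow, by 0.11 to 0.33. The 2 groups overlapped because the full value of cow 1 (9.20) lay above the empty value of cow 4 (9.10). The difference was -0.26 ± 0.073 log2 (moderated SE over 4 cows, the error given after each difference below), with a 95% interval of -0.44 to -0.082, an unadjusted p of 0.0121 and a limma adjusted p of 0.993.

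MRPL34, the counterpart of bacterial L34, had the most negative mean, at -0.28 ± 0.14 (SE). It went from 10.23, 10.24, 10.44 and 10.42 log2 in empty gland of cows 1 to 4 to 10.27, 9.52, 10.39 and 10.02 in full gland, so the lower mean came from cows 2 and 4. MRPL45, which resembles the import protein TIMM44 and lies where the new chain leaves the ribosome at the inner membrane, differed by -0.23 ± 0.096. Its differences in cows 1 to 4 were -0.067, -0.50, -0.084 and -0.25. MRPL43, which has no bacterial counterpart, differed by -0.19 ± 0.18. It was at 9.16, 9.07, 9.12 and 8.95 in empty and 9.187, 8.164, 9.196 and 9.002 in full gland, so that only cow 2 was lower. Its second probe set differed by -0.11, -0.25, -0.056 and -0.12 in cows 1 to 4.

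The stalk protein MRPL12, the counterpart of bacterial L7/L12 that helps to recruit translation factors, differed by -0.16 ± 0.12, with levels of 9.25 ± 0.068 in empty and 9.09 ± 0.35 in full gland (SD, n = 4). Full cow 2 stood at 8.58, and the other 3 full libraries were between 9.19 and 9.36. MRPL58, a peptidyl-tRNA hydrolase that releases stalled chains and is built into the large subunit, differed by -0.12 ± 0.086. The confidence intervals of both reached past 0, at -0.46 to 0.15 and -0.33 to 0.093.

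A higher mean in full gland was seen for 5 large subunit members, and the rule for named genes took 4 of them. MRPL32, a protein cleaved by the m-AAA protease before it joins the ribosome, had levels of 8.45, 8.60, 8.44 and 8.20 log2 in empty and 8.57, 8.88, 8.44 and 8.40 in full gland of cows 1 to 4. The difference was 0.15 ± 0.076 (SE), higher in all 4 cows but by only 0.00060 in cow 3. MRPL39, which is related to threonyl-tRNA synthetase, differed by 0.057 ± 0.10, MRPL22, which lines the exit tunnel, by 0.033 ± 0.11 and MRPL13 by 0.033 ± 0.071. Each of these 4 differences had a 95% interval that included 0.

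**Figure D3:**
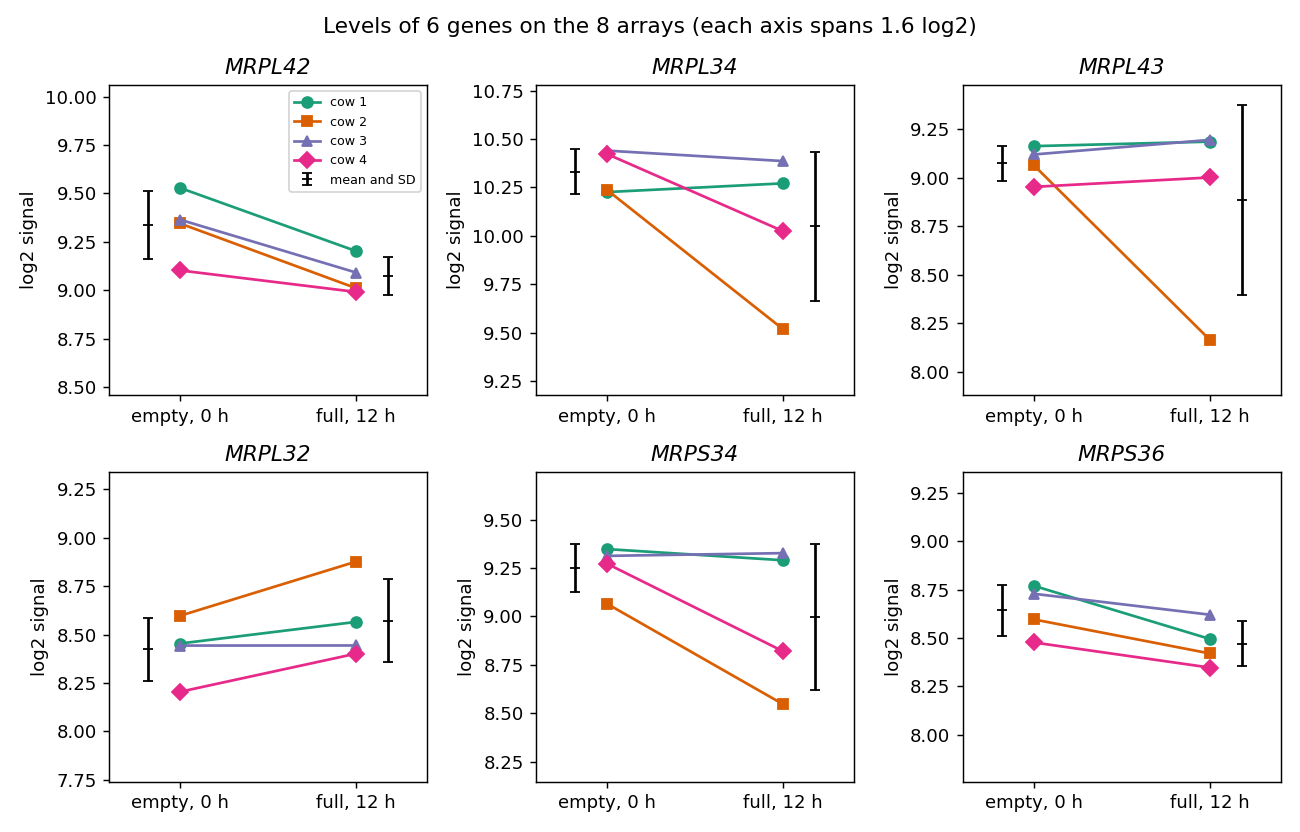
Log2 signal of 6 genes in empty (0 h) and full (12 h) gland, with 1 line per cow and the mean and SD of the 4 arrays (black) beside each group. MRPL42 and MRPS36 are lower in full gland in each cow, MRPL32 is level in cow 3 and higher in the others, MRPL34 and MRPS34 are lower mainly in cows 2 and 4, and MRPL43 in cow 2.

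In the small subunit, MRPS34, a protein with no bacterial counterpart whose loss impairs mitochondrial translation in mice and people, had the most negative mean. Its levels were 9.35, 9.07, 9.31 and 9.27 log2 in empty and 9.29, 8.55, 9.33 and 8.82 in full gland of cows 1 to 4. Cows 2 and 4 differed by -0.52 and -0.45, and cows 1 and 3 by -0.058 and 0.014. The mean difference was -0.25 ± 0.12 (SE), with an interval of -0.54 to 0.032. Its second probe set went the same way in cows 2 and 4, at -0.75 and -0.39, and was higher by 0.21 and 0.19 in cows 1 and 3.

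The next 3 small subunit members were also lowest relative to empty gland in cow 2 and then cow 4. MRPS14, the counterpart of bacterial S14, differed by -0.22 ± 0.12, MRPS25 by -0.22 ± 0.14 and MRPS16, the counterpart of bacterial S16, by -0.20 ± 0.15. In cow 2 they were lower by 0.59, 0.59 and 0.68 log2, in cow 4 by 0.27, 0.45 and 0.28, and in cow 1 they were higher by 0.043, 0.072 and 0.11. In cow 3 they differed by -0.064, 0.093 and 0.065. The empty levels of MRPS16 varied little, at 9.19 ± 0.034 (SD, n = 4), against 8.997 ± 0.38 in full gland.

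MRPS18A and MRPS18B both descend from the bacterial S18 family and lie in the large and the small subunit. They differed by -0.18 ± 0.16 and -0.15 ± 0.11, and both were lowest in the full library of cow 2, at 6.96 and 9.68 log2. MRPS36 had levels of 8.77, 8.60, 8.73 and 8.48 in empty and 8.49, 8.42, 8.62 and 8.35 in full gland of cows 1 to 4. The difference was -0.17 ± 0.068, lower in all 4 cows and most in cow 1 (-0.27), with an unadjusted p of 0.0455 and a limma adjusted p of 0.993.

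In 4 small subunit members the mean was above 0. MRPS31 differed by 0.036 ± 0.085, MRPS22, a protein with no bacterial counterpart, by 0.022 ± 0.14, MRPS24, the counterpart of bacterial S3, by 0.022 ± 0.081 and MRPS17 by 0.0028 ± 0.070. MRPS22 was the most variable of these. It was lower by 0.23 and 0.30 in cows 1 and 3 and higher by 0.45 and 0.17 in cows 2 and 4, whereas MRPS34 was lower in cows 2 and 4.

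The members in the ribosome were also split into those related to a bacterial ribosomal protein and those with no bacterial counterpart. The 40 related members had a median of -0.083 log2, with 34 lower, and the 26 others a median of -0.10, with 23 lower. In cows 1 to 4 the medians were -0.012, -0.16, 0.00075 and -0.14 for the first and -0.058, -0.23, -0.035 and -0.087 for the second. Lower in all 4 cows were 2 of the 40 related members (5.0%) and 6 of the 26 others (23.1%), against 7.11% of all genes. No test was made between these groups.

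Probe sets of the same gene disagreed most in cow 2. Over the 14 members with several probe sets, the range between probe sets of a gene had a median of 0.106, 0.481, 0.152 and 0.154 log2 in cows 1 to 4. Over all 2913 genes with several probe sets it was 0.163, 0.355, 0.182 and 0.179. The brightest probe set of MRPS2, the counterpart of bacterial S2, was higher by 0.43 in cow 2, and its second probe set was lower by 0.62 there. The 3 probe sets of MRPL23, a protein at the tunnel exit, were lower in cow 2 by 0.13, 0.45 and 0.62, and those of MRPS9 by 0.12, 0.69 and 0.29.

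In cow 2 the dimmer probe sets gave the more negative values. The 17 further probe sets had a median of -0.37 in that cow, with 15 lower, against -0.12 and 9 of 14 for the brightest probe sets of the same genes. In cow 3 the further probe sets went the other way, with a median of 0.077 and 3 of 17 lower, against -0.073 and 10 of 14. The size of a member's difference in cows 2 and 3 thus depended on which probe set represented it. Cow 3 was also the cow in which the 5-prime control signal was higher in full gland by the most, at 0.374 log2, and the part of RNA integrity in these values was not tested.

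**Figure D4:**
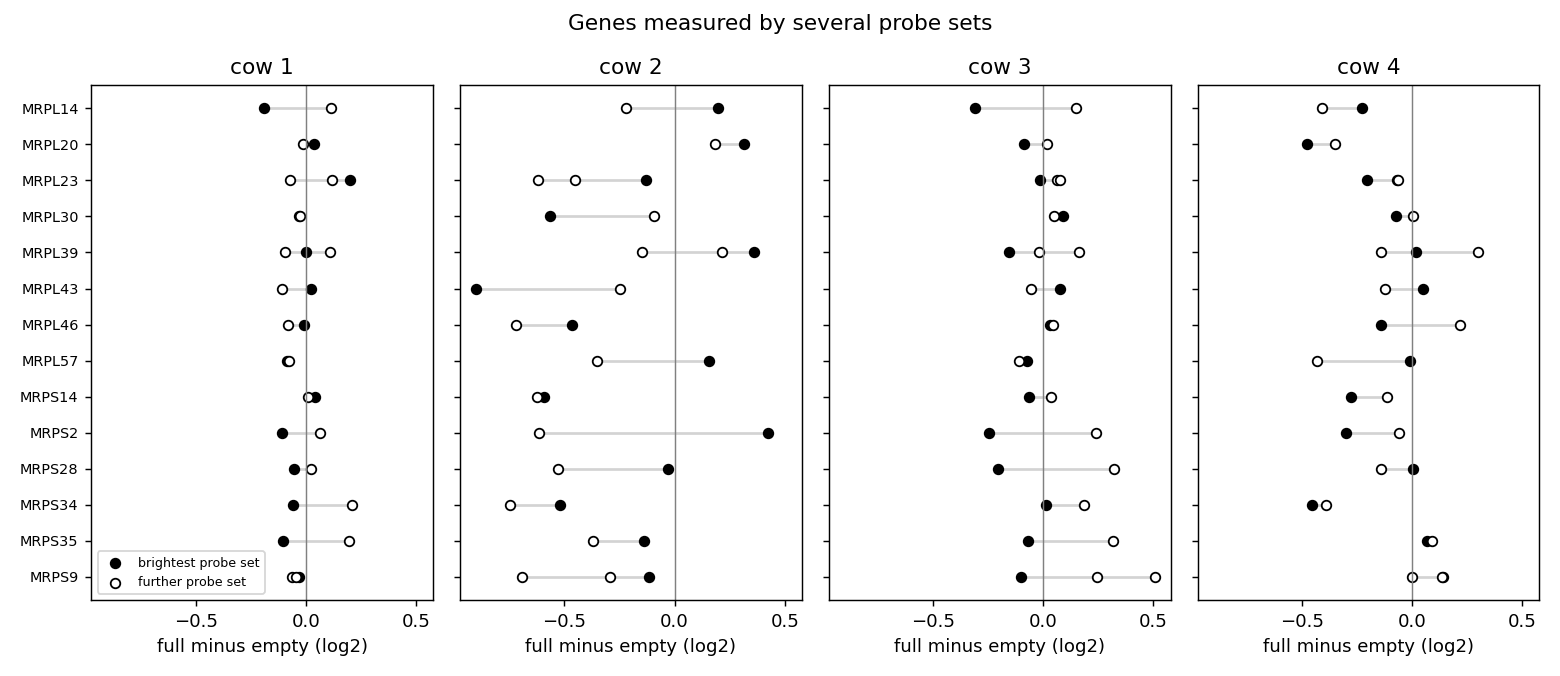
Full minus empty difference (log2, horizontal axis) in each cow for the 14 genes with several probe sets, with the brightest probe set filled, further probe sets open and a grey line joining those of a gene. The lines are longest in cow 2, where the median range is 0.481, and shortest in cow 1, where it is 0.106.

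Differences between the cows themselves were compared by an F-test on the cow coefficients in limma, which compares these 4 animals from 2 samples each. No member passed at an adjusted p of 0.05 (against 0.481% of all genes), with 0.188 as the lowest limma adjusted p. Before adjustment 15 of 67 members were under 0.05 (22.4%, against 16.9% of all genes). These were 7 of 43 large (16.3%) and 8 of 24 small subunit members (33.3%), and no test was made between the subunits. The count over both subunits was 6 without cow 1, 14 without cow 2, 12 without cow 3 and 8 without cow 4. It was 6 among brighter probe sets only, 5 with an intensity trend and robust prior and 16 with array weights. The share of all genes under these settings is not given here, so these counts cannot be set against it. MRPL36, the counterpart of bacterial L36, had the smallest p, at 0.0057. It was at 9.65 and 9.66 log2 in empty gland of cows 1 and 3 and at 9.31 and 9.25 in cows 2 and 4, with full levels of 9.59, 9.04, 9.66 and 8.98 in cows 1 to 4. Cows 1 and 3 were thus above cows 2 and 4 in both states.

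MRPS26 had the second smallest p, at 0.0083, and was highest in cow 3 (9.42 empty, 9.39 full) and lowest in cow 2 (8.93 and 8.72). MRPS9, the counterpart of bacterial S9, was highest in cow 1 (8.70 empty, 8.66 full) and lowest in cow 4 (8.13 and 8.28), with an F-test p of 0.0205. MRPL28 was highest in cow 1 as well, at 8.14 and 8.12 against 7.61 to 8.01 in the others, with an F-test p of 0.0229. None of these 4 passed after adjustment in limma.

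Other genes that serve the mitochondrial ribosome did not pass the limma test either, with 0 called in each direction in each list below. For the counts that follow, 51.4% of all genes were lower in mean and 7.11% were lower in all 4 cows. Of 5 ribosome subunits measured under other symbols (of 6 listed), 2 were lower in mean (median 0.015). GADD45GIP1, a large subunit protein, differed by -0.22 ± 0.13 and DAP3, a GTP-binding small subunit protein, by 0.048 ± 0.088. Of 12 mitochondrial translation factors (of 20 listed) 9 were lower (median -0.039), among them the release factor MTRF1 at -0.21 ± 0.078 and OXA1L, the insertase that takes new chains into the inner membrane, at -0.084 ± 0.068. MTRF1 was lower in all 4 cows, by 0.020 to 0.29, and its full levels (7.22 to 7.37) lay below its empty levels (7.39 to 7.63). Full levels wholly below empty ones were seen for 0.36% of all genes, and also for 2 import genes and 1 respiratory chain gene.

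Of 19 genes of ribosome assembly and mitochondrial RNA (of 29 listed), 16 were lower (median -0.10), with the assembly factor MPV17L2 at -0.21 ± 0.11 and FASTKD2, which binds the large ribosomal RNA, at -0.19 ± 0.10. Of 15 genes for mitochondrial transfer RNA charging (of 23 listed) 10 were lower (median -0.010), with GATB, of the glutamyl-tRNA amidotransferase, at 0.20 ± 0.085 and the tryptophanyl-tRNA synthetase WARS2 at -0.10 ± 0.069. Of 25 import genes (of 31 listed) 23 were lower (92%, against 51.4% of all genes, median -0.091). In all 4 cows 7 import genes were lower (28%, against 7.11% of all genes). The small chaperones TIMM8A and TIMM9 were at -0.20 ± 0.079 and -0.22 ± 0.090. The import medians in cows 1 to 4 were -0.13, -0.16, -0.044 and -0.093, so cow 1 was lower in this list than in the ribosomal genes. Of 7 regulators of mitochondrial biogenesis (of 12 listed) 4 were lower (median -0.024), with the transcription factor MYC at 0.42 ± 0.15 and the coactivator PPARGC1A at -0.23 ± 0.16.

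The products of mitochondrial translation assemble with nuclear-encoded subunits, which gave a similar order of cows. The 79 measured genes of the respiratory chain and ATP synthase had a median of -0.12, with 73 lower (92.4%, against 51.4% of all genes). Their medians were 0.017, -0.31, 0.013 and -0.20 in cows 1 to 4. The 62 cytosolic ribosomal protein genes had a median of -0.0044, with 34 lower (54.8%), and medians of 0.020, -0.043, 0.0095 and -0.014. Their median level in empty gland was 13.1 log2, against 9.19 for the mitochondrial ribosomal genes. That is near the highest deposited value of 14.4, where the arrays may show little difference. The same libraries enter each of these lists, and no test was made between them and the mitochondrial ribosomal genes.

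**Figure D5:**
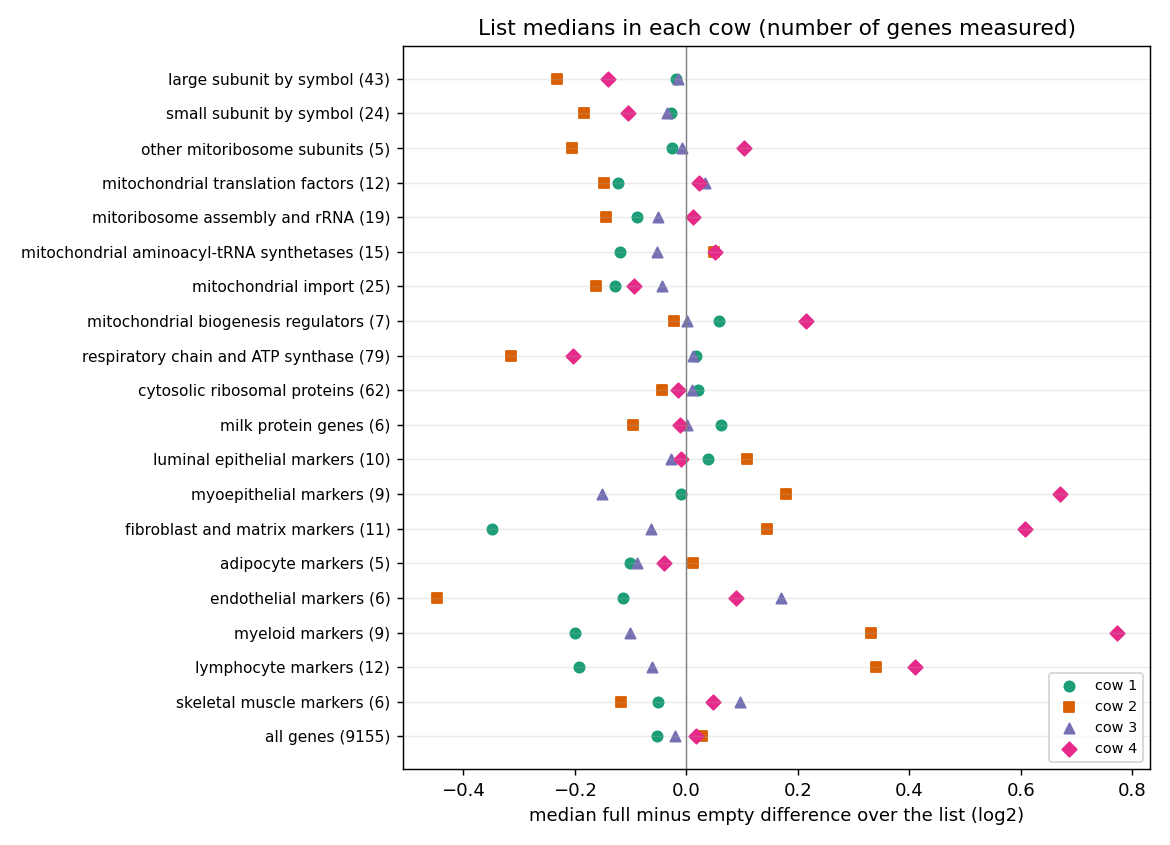
Median full minus empty difference (log2, horizontal axis) over each gene list in each cow, with the number of measured genes in brackets. Both mitochondrial ribosome subunits and the respiratory chain lie lowest in cows 2 and 4, while myoepithelial, fibroblast, myeloid and lymphocyte markers lie highest in cow 4.

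Several lists of markers of other cells had a higher median in full gland of cow 4, and less so in cow 2. In cow 4 the median difference was 0.67 over 9 of 9 myoepithelial, 0.61 over 11 of 13 fibroblast, 0.77 over 9 of 10 myeloid and 0.41 over 12 of 14 lymphocyte markers measured, and in cow 2 it was 0.18, 0.15, 0.33 and 0.34. In cow 1 these medians were -0.010, -0.35, -0.20 and -0.19, and in cow 3 -0.15, -0.063, -0.10 and -0.062. Over all genes the median was 0.017 in cow 4, with quartiles of -0.14 and 0.21, and 0.029 in cow 2, with quartiles of -0.17 and 0.25. The myoepithelial and fibroblast medians of cow 2 thus lay within the quartiles of all genes. The summed log2 level of the fibroblast markers lay between 14.4 and 15.02 in empty and between 14.4 and 15.5 in full gland, and that of the myoepithelial markers between 13.8 and 14.2 and between 13.7 and 14.7. For myeloid markers the ranges were 11.7 to 11.9 and 11.6 to 12.2, and for lymphocyte markers 12.2 to 12.5 and 11.7 to 12.3. Full cow 2 was the lowest of the lymphocyte sums although its median was positive. The myeloid sum of cow 2 was also lower in full (11.738) than in empty gland (11.875), although its median was positive. Luminal epithelial markers had a median of 0.069 over 10 of 10 genes, and medians of 0.039, 0.11, -0.027 and -0.010 in cows 1 to 4. Single luminal markers went both ways, from -0.38 to 1.19 in cow 2 (4 of 10 lower) and from -0.32 to 1.36 in cow 4 (5 of 10 lower). Endothelial markers had a median of -0.096 over 6 of 7 (-0.45 in cow 2), adipocyte markers -0.037 over 5 of 6 and skeletal muscle markers -0.011 over 6 of 8. The deposited values do not reach 0, their lowest being 4.98, and no detection calls were used. Only 3 of 12 lymphocyte, 1 of 5 adipocyte and 1 of 6 skeletal muscle markers were above the median probe set. Their median levels in empty gland were 6.92, 6.22 and 6.19 log2, so parts of these lists may be near background. The part of these cells in the mitochondrial ribosomal values was not tested, and in bulk tissue fewer cells of a type and less RNA per cell cannot be told apart.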

How the data were processed

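The deposited values are log2 signals that the authors obtained with RMA, as the submitters' processing notes name it without a version. That method subtracts background, forces the arrays to 1 common distribution and combines the probes of a set, so a shift shared by most genes is lost. Their scale was judged from their range (4.98 to 14.4). Per the labels' protocols, RNA was primed from its poly(A) tail with oligo(dT), so probe sets far from the 3-prime end are sensitive to RNA breakage.

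Of 24128 probe sets, 112 platform controls were left out. Of the remaining 24016, 13292 had 1 symbol, 86 several and 10638 none in the platform annotation, which can be old. The test was limma 3.58.1 in R 4.3.3 (lmFit, eBayes, two-sided) with state and cow as fixed terms (3 residual degrees of freedom) and Benjamini-Hochberg adjustment over all 24016 probe sets. The same test was also run on simulated data. The changes put in there were larger than those of the members, so that run does not bear on differences this small. The descriptions name both samples of each cow, and deviations from the group means correlated at 0.457, 0.319, 0.597 and 0.525 within cows and at -0.031 or below between them. Subtracting group means pushes the values between cows below 0 when those within cows are positive, so they are not separate evidence of the pairing.

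Members and lists were chosen with earlier results of these data known. Named members were, per subunit, the 4 most positive and 4 most negative means and the 2 smallest p of each test, plus MRPL12, MRPL58, MRPS18A and MRPS18B, and in the mitochondrial lists the 2 genes with the smallest p. Other members were named after their values were seen. Grouping by structure, by relation to bacterial proteins and the 1.25-fold limit were also added then. No genome or sequence table was used, so no coordinates or sequences are given.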

Additional observations from a re-analysis of the deposited data

Results flagged for a closer look

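Among the 83 sets of 4 values looked at (the empty levels, full levels and differences of 25 named members, the subunit medians and the control difference), 1 held a value that stood far from the others by Dixon's test, where chance alone flags about 1 in 20. The full minus empty difference of MRPL43 was -0.903 log2 in cow 2 and between 0.0232 and 0.0754 in cows 1, 3 and 4. Its second probe set differed by -0.246 in cow 2.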

How the results depend on the processing

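With no replicate block 0 members were called for state, with 1 at an unadjusted p under 0.05, and 0 were called under each other setting. These were a random cow block, centring on array medians, a second quantile normalization, a filter on dim probe sets, leaving out 1 cow or cows 2 and 4, a robust prior with an intensity trend, averaged probe sets, a threshold of 0.1 and array weights, with 1 to 3 members at an unadjusted p under 0.05. Between cows 0 were called under the settings run, except without cows 2 and 4, where 2 of 67 were, MRPL30 and MRPS6, against 8.07% of all genes. Members under an unadjusted p of 0.05 between cows numbered 5 to 16 over these settings, and the matching shares of all genes are not given here. Leaving out each cow in turn moved the large subunit median between -0.116 and -0.0444, the small subunit median between -0.123 and -0.0356 and large minus small between -0.0215 and 0.0222. Members lower in every remaining cow then numbered 14 to 19 and members higher 1 to 4, counts that fewer cows raise by construction. Without cows 2 and 4 the large subunit median was 0.0047 and large minus small 0.0255, with 24 members lower and 15 higher in both remaining cows. In cows 1 and 3 taken singly, 63.1% and 55.7% of all genes were lower. After median centring 0 were higher and 6 lower in all 4 cows, with 7 lower after a second quantile normalization and 12 with averaged probe sets. Shares of all genes lower or higher in every cow are not given for these settings. Members grouped by structure, chosen after seeing the data, gave -0.111 for the large and -0.0731 for the small subunit.

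Of 25 named members, 17 changed sign under at least 1 setting and the causes were not tested. Without cows 2 and 4 the differences were 0.043 for MRPL12, 0.029 for MRPL28, -0.076 for MRPL39, 0.049 for MRPL43, 0.0047 for MRPL58, 0.089 for MRPS16, 0.12 for MRPS18A, 0.057 for MRPS18B, -0.27 for MRPS22, 0.082 for MRPS25 and 0.0011 for MRPS26. With array weights MRPL39 was at -0.033 and MRPS22 at -0.13, and MRPS17 was at -0.014 after median centring and -0.0070 after repeated quantile normalization. With each cow left out, the ranges were -0.0070 to 0.066 for MRPL13, -0.057 to 0.15 for MRPL22, -0.091 to 0.0057 for MRPL28, -0.044 to 0.13 for MRPL39, -0.28 to 0.049 for MRPL43, -0.084 to 0.0026 for MRPS9, -0.033 to 0.039 for MRPS17, -0.12 to 0.13 for MRPS22, -0.011 to 0.093 for MRPS24 and -0.012 to 0.094 for MRPS31.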
